A study of Mus musculus with 2 samples.

Results

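Apical vesicle traffic genes, which encode proteins of vesicle transport, fusion and sorting, were examined in single-cell transcriptomes of mouse urothelial organoids. Some of them are known from the vesicles that carry uroplakins to the cell surface. The 10 members, Snx31, Rab27b, Rab27a, Rab11a, Mal, Vamp7, Vamp8, Snap23, Snap25 and Sytl2, were taken as a list of symbols out of 31053 genes in the count matrices. All 10 were present in both libraries, and all had at least 100 UMIs (unique molecular identifiers, each standing for 1 captured RNA molecule) over both libraries, as did 10719 genes. These are mRNA levels, and delivery of uroplakin plaques to the membrane was not measured.

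Umbrella cells, the outermost layer of the urothelium, cover their luminal surface with rigid plaques built from uroplakins. Plaques travel in fusiform vesicles that fuse with the apical membrane as the bladder fills and are taken back by endocytosis as it empties. RAB27B and RAB11A are small GTPases of the outward route, MAL helps vesicles to enter the apical membrane, SNARE proteins of the VAMP and SNAP families drive fusion, and SNX31 is a sorting nexin that binds uroplakins on their way to degradation.

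The organoids were grown in Matrigel from the urothelium of wild-type C57BL/6 mice, 8 to 10 weeks old, and had not been sorted for EpCAM. Proliferative organoids (P) were kept in complete medium, which holds EGF, LY2157299 (a blocker of TGF-β receptor signalling), WNT3A, Noggin and RSPO1, whereas differentiated organoids (D) were moved to medium without these 5 components. Each condition was represented by 1 library, so that no difference below has a replicate check and no p-value was computed. The number of mice behind each library is not given in the sources used here. Organoid cultures lack the stroma, urine and stretch of a bladder.

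Cells with over 800 genes and at most 12% mitochondrial UMIs were kept, which left 6818 cells with 26681469 UMIs in P and 4896 cells with 20305621 UMIs in D. Median depth was 3405.5 and 3227.5 UMIs per cell, and the libraries shared 6 barcodes among kept cells. Levels are UMIs per 1000000 UMIs (CPM), with 95% intervals that cover counting error only. UMIs of ribosomal protein genes made up 37.4% of the P library and 21.4% of the D library, and the typical gene (100 or more UMIs in P and also in D) had a D over P log2 ratio of 0.42. The 5 uroplakins were 0.150 to 12.3 CPM in P and 14.6 to 477 CPM in D. Doublets were not removed.

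To learn how the traffic genes differed between proliferative and differentiated organoids, their UMIs were added up over all kept cells, library by library. Snx31, Snap25, Sytl2, Rab27b, Mal and Vamp8 were at least 2-fold higher in D, Vamp7 and Rab11a were higher by less, Snap23 was within counting error and Rab27a was lower. The 6 of 10 members at least 2-fold higher in D compare with 13.5% of all genes tested, and 0 of 10 members were at least 2-fold higher in P, compared with 4.73% of all genes. The members were not drawn at random, so these shares are a description and not a test. The median log2 ratio of the members was 1.10, beside 0.41 over all genes tested. When libraries were scaled to a common median ratio, 4 of 10 remained at least 2-fold higher in D (Snx31, Snap25, Sytl2 and Rab27b), Rab27a stood at a log2 ratio of -1.25, past 2-fold, and the small differences of Rab11a and Snap23 turned negative.

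Among the Rab GTPases, the paralogues Rab27b and Rab27a went in opposite directions. Rab27b (chr18:69979131-70141605, GRCm38, minus strand), the form best known from urothelial fusiform vesicles, was 27.8 CPM in P and 88.8 CPM in D, a log2 ratio of 1.67 (1.55 to 1.80). Rab27a (chr9:73044854-73097629, plus strand), which serves secretory lysosomes and melanosomes, was 39.3 CPM in P and 22.2 CPM in D, a log2 ratio of -0.82 (-0.99 to -0.66). In melanocytes Rab27a carries pigment granules, and the summed UMIs of the 5 melanocyte markers were 47 in P and 52 in D. Rab11a (chr9:64715299-64737758, minus strand), a GTPase of recycling endosomes, was 220 CPM in P and 259 CPM in D. Its log2 ratio of 0.24 (0.18 to 0.29) was smaller than the shift of the median gene.

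Sytl2 (chr7:90302252-90410719, plus strand) encodes a synaptotagmin-like protein that tethers RAB27-bearing vesicles to the plasma membrane. It was 1.46 CPM in P (39 UMIs) and 19.6 CPM in D (399 UMIs), a log2 ratio of 3.75 (3.27 to 4.26). Sytl2 and Rab27b were thus both higher in D while Rab27a was lower.

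Snx31 (chr15:36504062-36555573, minus strand) had the largest ratio of the 10 members. It was 0.187 CPM in P, from 5 UMIs in as many cells, and 19.0 CPM in D, from 386 UMIs, a log2 ratio of 6.66 (5.43 to 8.30). After each cell was thinned to 2100 UMIs, Snx31 was detected in 0.0452% of 6638 cells in P and in 3.37% of 4417 cells in D. Mal (chr2:127633226-127656695, minus strand), a lipid raft protein of apical transport, was 249 CPM in P and 564 CPM in D, a log2 ratio of 1.18 (1.14 to 1.23). Mal was found in 18.1% of thinned cells in P and in 48.2% in D, yet the most UMIs in a single cell, 77, were in P, against 31 in D.

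The SNARE genes differed among themselves. Vamp8 (chr6:72385223-72390703, minus strand), a vesicle SNARE of regulated exocytosis, was 146 CPM in P and 294 CPM in D, a log2 ratio of 1.01 (0.95 to 1.07) at the 2-fold limit itself. Vamp7, a vesicle SNARE of late endosomes and lysosomes that is annotated on a scaffold outside the assembled chromosomes, was 21.6 CPM in P and 38.5 CPM in D, a log2 ratio of 0.83 (0.68 to 0.99). Another gene on the opposite strand overlaps Vamp7. Snap23 (chr2:120567671-120601255, plus strand), the widely used target-membrane SNARE, was 26.0 CPM in P and 26.8 CPM in D, a log2 ratio of 0.04 (-0.12 to 0.21).

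Snap25 (chr2:136713453-136782428, plus strand), the homologue of Snap23 that is best known from synapses, was 0.187 CPM in P from 5 UMIs and 5.61 CPM in D from 114 UMIs, a log2 ratio of 4.90 (3.64 to 6.56). It was present in 1.57% of D cells before thinning. Markers of neurons and neuroendocrine cells were near 0, with 15 UMIs in P and 9 UMIs in D over 6 genes, of which 1 was at 0 in P and 2 in D.

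**Figure D1:**
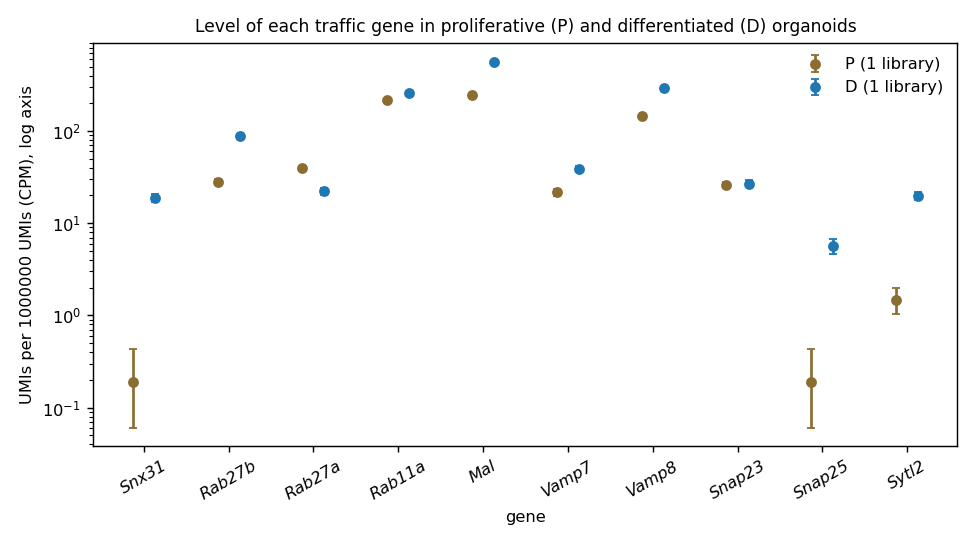
Level of each gene in CPM (log axis) in the P and D library, with bars for the 95% Poisson interval of the count. Snx31, Snap25 and Sytl2 lie far apart between libraries, Rab11a and Snap23 lie close together, and Rab27a is the member whose P point lies above its D point.

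Upstream sequence in the RefSeq promoter table (GRCm38.p6) was matched for 5 of the 10 members. The 250 bases before the start are shown for Mal, Rab11a and Vamp8, since these 3 genes were higher in uroplakin-bearing cells of both libraries. They run 5′ to 3′ on the gene's strand, with matches to the SP/KLF motif GGGCGGG in capitals.
Mal, chr2:127656696-127656945: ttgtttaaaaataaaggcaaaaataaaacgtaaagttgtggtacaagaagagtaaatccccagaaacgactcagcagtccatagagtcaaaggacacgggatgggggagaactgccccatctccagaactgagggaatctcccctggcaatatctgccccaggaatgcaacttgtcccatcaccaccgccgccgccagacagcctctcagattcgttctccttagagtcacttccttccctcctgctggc
Rab11a, chr9:64737757-64738006: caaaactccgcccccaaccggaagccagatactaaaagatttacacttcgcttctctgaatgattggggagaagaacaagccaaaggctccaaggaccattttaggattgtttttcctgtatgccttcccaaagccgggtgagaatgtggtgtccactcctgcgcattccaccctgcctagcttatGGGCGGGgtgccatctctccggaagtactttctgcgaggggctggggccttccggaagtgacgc
Vamp8, chr6:72390668-72390917: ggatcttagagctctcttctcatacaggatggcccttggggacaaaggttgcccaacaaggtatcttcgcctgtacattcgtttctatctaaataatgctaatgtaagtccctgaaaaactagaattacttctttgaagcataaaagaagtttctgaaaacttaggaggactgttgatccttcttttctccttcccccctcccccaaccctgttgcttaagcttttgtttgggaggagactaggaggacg
The 4 motifs were searched on both strands, and no matches overlapped. GGGCGGG occurred once in the Rab11a window and in the first of both windows of Rab27a, beside 23.4% of all 32851 windows. The GATA motif AGATAA (9.99% of all windows), the forkhead motif TGTTTAC (3.17%) and the grainyhead-like motif AACCGGTT (0.116%) were in none of the 6 windows of members, including that of Snap23. A match is a run of letters and not a measured binding site.

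Next, the members were followed along the uroplakin count per cell. Cells were thinned to 2100 UMIs, which left out 180 shallower cells in P and 479 in D, and were binned by their thinned UMIs of Upk1a, Upk1b, Upk2, Upk3a and Upk3b. In D, 2051 cells had 0 uroplakin UMIs, 804 had 1, 736 had 2 to 3, 465 had 4 to 7 and 361 had 8 or more. Levels of the members were then taken from all UMIs of the cells of each bin.

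Snx31, Mal and Sytl2 were at least 2-fold higher in D cells with 8 or more uroplakin UMIs than in those with 0, Rab27b, Rab11a and Vamp8 were higher by less, and Rab27a was lower. Of the 9 members with at least 100 UMIs over both bins, 3 were at least 2-fold higher, beside 3.77% of all genes, and 0 were at least 2-fold lower, beside 6.68%. The median log2 ratio of these 9 was 0.76, and that over all genes tested was -0.11. Median depth differed between these bins, at 4411 and 3029 UMIs per cell, as did the mitochondrial share at 7.87% and 6.49%. Summed fibroblast markers, of which only 1 of 6, Dcn, had 20 or more UMIs in D, were 7.80 and 102 CPM. Of the leukocyte markers in D, Laptm5 had 400 UMIs, Cd68 had 132 and Ptprc had 2, so that a marker UMI does not name a cell type. A check added after the data were seen left out every cell with a fibroblast or leukocyte marker UMI, 1081 in D. The count of members at least 2-fold higher was then 4, with Rab27b added.

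Snx31 was graded over the whole range, at 2.33, 8.39, 18.8, 32.3 and 97.8 CPM from the lowest bin to the highest, and the top bin stood apart. The log2 ratio of the top bin over the zero bin was 5.39 (4.69 to 6.17), from 188 and 18 UMIs. The top bin held 49.0% of the Snx31 UMIs of D and 9.90% of all UMIs. Snx31 was detected in 17.5% of its thinned cells and in 0.439% of cells with 0 uroplakin UMIs. In D cells with 4 to 7 basal attachment UMIs the share was 0.299% (0.0362 to 1.07%), from 2 cells. That share cannot serve as a floor, since 620 cells of the zero bin had 4 or more attachment UMIs and the groups overlap. Within the zero bin Snx31 was 4.21, 2.72 and 0.445 CPM at 0, 1 to 3 and 4 or more attachment UMIs, from 6, 11 and 1 UMIs. Whether these few UMIs reflect expression was not tested. At this depth most uroplakin-rich cells gave no Snx31 UMI.

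Mal was also graded, at 261, 536, 718, 964 and 1217 CPM over the same bins, a log2 ratio of 2.22 (2.13 to 2.31). It was detected in 25.8% of thinned cells of the zero bin and in 88.6% of those of the top bin. In the 670 D cells with 4 to 7 basal attachment UMIs, the share with Mal was 15.5% (12.9 to 18.5%), at a median depth of 3015 UMIs against 3029 in the zero bin. The part of free RNA in these shares was not tested. Sytl2 went from 11.4 CPM in the zero bin to 30.2 CPM at 2 to 3 uroplakin UMIs and was 31.2 CPM at the top, a log2 ratio of 1.45 (0.95 to 1.94). Most of its difference thus lay in the lower bins.

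Rab27b was not graded over the lower bins, at 82.1, 69.0 and 81.7 CPM, and was 100.5 and 153 CPM in the next 2. Its log2 ratio of the top over the zero bin was 0.90 (0.69 to 1.10). D cells with 0 UMIs of cornified envelope genes, described below, showed no rise of Rab27b with the uroplakin count. Rab27a was 20.4, 31.7, 26.1, 20.7 and 11.4 CPM, highest at 1 uroplakin UMI and lowest in the top bin, with a log2 ratio of -0.83 (-1.55 to -0.18) that rested on 22 UMIs in the top bin and turned to 0.42 when cells were binned by unthinned uroplakin counts. Rab11a was 211, 270, 284, 314 and 358 CPM, a log2 ratio of 0.76 (0.63 to 0.89), so that the recycling GTPase was graded across all bins.

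Vamp8 was 255 CPM at 0 and 368 CPM at 8 or more uroplakin UMIs, a log2 ratio of 0.53 (0.40 to 0.65). Vamp7 stayed between 35.2 and 44.1 CPM and Snap23 between 25.0 and 30.2 CPM, with log2 ratios of 0.03 (-0.36 to 0.40) and 0.24 (-0.21 to 0.68). Both intervals include equality and leave room for modest differences. Snap25 was 6.22 CPM at 0 and 3.64 CPM in the top bin, from 48 and 7 UMIs, and with under 100 UMIs it was not counted.

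**Figure D2:**
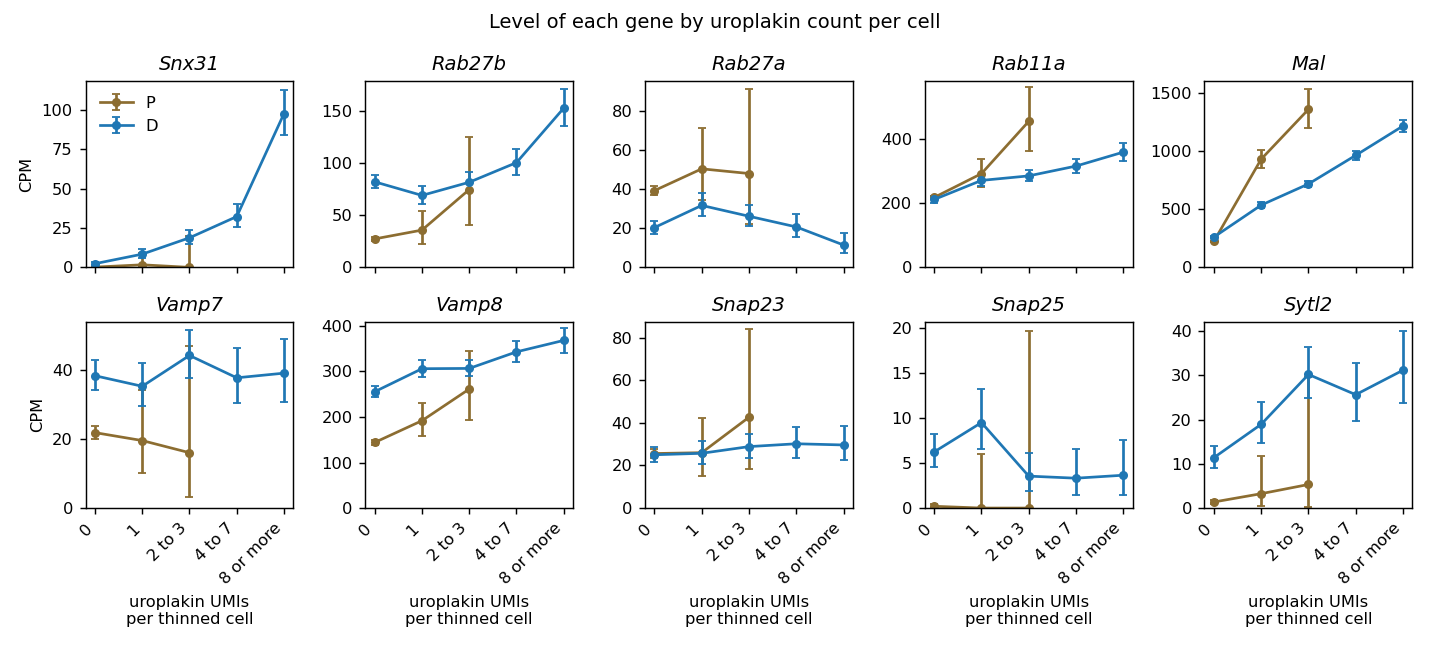
Level of each gene in CPM (linear axis from 0, own scale in each panel) by uroplakin UMIs per thinned cell in P and D, with 95% Poisson intervals, for bins of at least 30 cells. In D, Snx31 climbs from 2.33 to 97.8 CPM and Mal from 261 to 1217 CPM, whereas Vamp7 and Snap23 stay level.

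Detection of several members in the same cell followed the uroplakin count. In thinned cells of D a mean of 1.35 of the 10 members was detected at 0 uroplakin UMIs and of 2.65 at 8 or more, with 21.2% and 1.39% of cells showing none. Of the 361 uroplakin-rich cells, 63 had Snx31, 320 had Mal and 60 had both. Rab27b was found in 95 of these cells and with Snx31 in 24, and 23 held all of Snx31, Mal and Rab27b. Numbers expected from the single shares were not computed, and Mal alone was in most of these cells. Rab27a and Rab27b were found together in 4.

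Over all 4896 kept cells of D, the genes whose normalised values went most closely with Mal among 9398 genes were Psca (Pearson r = 0.67), Akr1b3 (0.60) and S100a6 (0.56). For Rab11a they were Psca (0.25), Mal (0.25) and Nupr1 (0.24), and for Vamp8 Psca (0.21), Mal (0.19) and S100a6 (0.19). For Rab27b they were Clu (0.21), Serpinb6b (0.17) and Sprr1a (0.15). Sprr1a belongs to the cornified envelope genes described below. For Snap23 they were Clu (0.09), Mal (0.07) and Krt18 (0.07), and for Vamp7 Anxa3 (0.06), Ckap4 (0.06) and Cdkn2b (0.06). Snx31 had fewer UMIs than the 500 set for this description and was added after its values were seen, with Upk1b (0.33), Upk3a (0.32) and Upk1a (0.30) at the top. These cells come from 1 library and differ in depth, whose part in the coefficients was not tested.

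In P, uroplakin-bearing cells were few, at 171 of 6638 thinned cells, of which 129 had a single UMI. Mal was 225 CPM in cells with 0 and 1058 CPM in cells with 1 or more uroplakin UMIs, a log2 ratio of 2.23 (2.13 to 2.34). The same split in D gave 261 and 793 CPM, a log2 ratio of 1.60 (1.53 to 1.67). In P, Rab27b differed by 0.77 (0.27 to 1.24), Rab11a by 0.61 (0.43 to 0.78) and Vamp8 by 0.50 (0.27 to 0.72) on the log2 scale, and in D by 0.18 (0.04 to 0.33), 0.50 (0.41 to 0.59) and 0.34 (0.26 to 0.42). Snx31 had 1 UMI in the 171 cells of P, against 366 UMIs in 2366 uroplakin-bearing cells of D. Both splits fall on the same genes but on cells of very different uroplakin content.

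To compare the libraries apart from uroplakin content, cells with 0 uroplakin UMIs were set side by side, 6467 in P and 2051 in D. Rab27b was 27.3 CPM in P and 82.1 CPM in D, a log2 ratio of 1.59 (1.43 to 1.75), and Sytl2 was 1.37 and 11.4 CPM, a log2 ratio of 3.06 (2.48 to 3.66). These were 2 of the 8 members with at least 100 UMIs, beside 13.1% of all genes, and 0 of 8 were at least 2-fold higher in P, beside 4.7%. Mal was 225 and 261 CPM, a log2 ratio of 0.21 (0.14 to 0.29) that turned to -0.27 with the libraries scaled by the median ratio, and Rab11a was 217 and 211 CPM, at -0.04 (-0.12 to 0.04). Rab27a remained lower in D, at 39.3 and 20.4 CPM and a log2 ratio of -0.95 (-1.20 to -0.70), which went past 2-fold, to -1.43, with the libraries scaled by the median ratio. Snx31 had 4 and 18 UMIs here, and Snap25 had 5 and 48.

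Vamp8 and Vamp7 were also higher in D among these cells, by 0.83 (0.75 to 0.91) and 0.81 (0.60 to 1.02) on the log2 scale, where the median gene with at least 100 UMIs in each group was shifted by 0.48. Snap23 was at -0.03 (-0.27 to 0.20). The zero bin holds cells with no uroplakin UMI among 2100, which is not the same as cells without uroplakin mRNA.

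**Figure D3:**
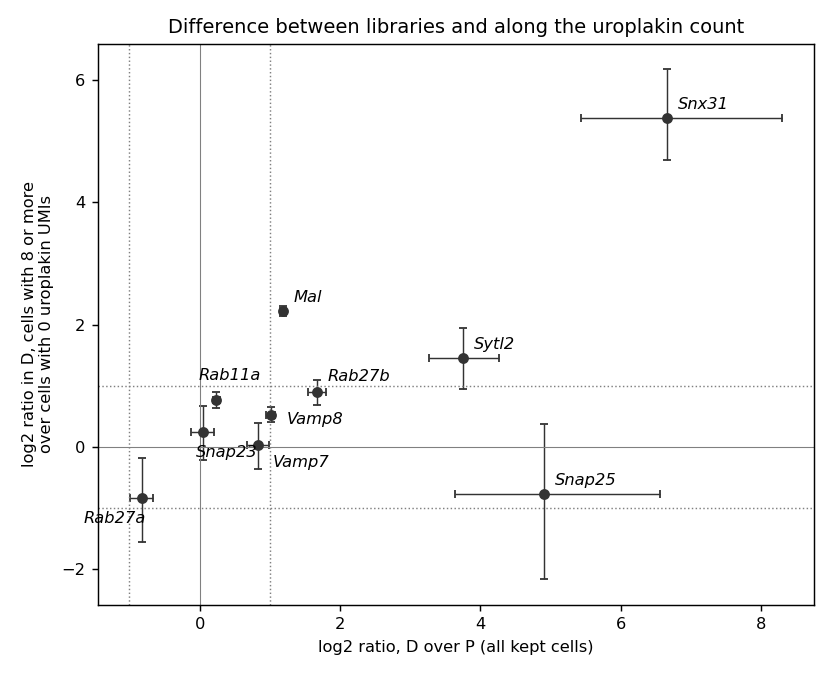
Log2 ratio of D over P in all kept cells (x) against log2 ratio of D cells with 8 or more over 0 uroplakin UMIs (y), 1 point per gene with 95% counting intervals and dotted lines at 2-fold. Both axes use D cells. Snx31 is far from 0 on both, at 6.66 and 5.39, Snap25 only on x, and Mal has a larger value on y (2.22) than on x (1.18).

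Cornified envelope genes mark squamous differentiation, which the upper cells of stratified epithelia can undergo. The same cells were therefore binned by 8 cornified envelope genes (Sprr3, Cnfn, Ivl, Krtdap, Crnn, Flg, Sprr1a and Lor). The count was not made of the same genes in both libraries, since UMIs of Flg numbered 5651 in P but 1 in D and those of Crnn 3019 and 11, whereas Sprr1a had 18416 and 16367 and Ivl 3307 and 4185. In D the count was thus carried almost wholly by Sprr1a and Ivl, and it is not the same measure in P. In P, Mal was 34.0 CPM in 3614 cells with 0 and 1231 CPM in 550 cells with 8 or more of these UMIs, a log2 ratio of 5.18 (5.03 to 5.32). Rab27b was 11.7 and 75.2 CPM, at 2.68 (2.36 to 3.00), Rab27a 20.3 and 80.6 CPM, at 1.99 (1.72 to 2.26), and Rab11a 157 and 442 CPM, at 1.50 (1.39 to 1.60). These 4 of the 7 members with at least 100 UMIs were at least 2-fold higher, beside 6.98% of all genes. Snx31 had 3 UMIs in the 550 cells and 0 in the 3614.

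In D, 221 cells had 8 or more and 1712 had 0 cornified envelope UMIs, and 3 of 9 members were at least 2-fold higher with 8 or more, beside 2.82% of all genes. These were Snx31, from 6.46 to 83.7 CPM, Mal, from 362 to 1341 CPM, and Rab27b, from 70.6 to 145 CPM. Rab27a was 21.5 and 16.0 CPM, a log2 ratio of -0.43 (-1.16 to 0.24) over all D cells of these bins, against 1.99 in P. Among D cells with 0 uroplakin UMIs, however, Rab27a was 14.1 CPM (10.6 to 18.4) at 0 cornified envelope UMIs. It was 26.4 CPM (21.2 to 32.5) at 1 to 3 and 27.2 CPM (14.8 to 45.6), from 14 UMIs, at 4 or more. In P cells with 0 uroplakin UMIs, Rab27a was 20.3, 44.5 and 78.0 CPM over these classes. In D cells with 1 to 3 uroplakin UMIs it was 31.5, 27.4 and 29.2 CPM. Values in D cells with 4 or more uroplakin UMIs were 31.7 CPM (19.1 to 49.4), then 16.6 CPM (11.1 to 23.8). The last class was lower again, with an interval of 7.71 to 17.9 CPM. These classes held 19, 29 and 24 UMIs of Rab27a. Intervals of neighbouring classes overlap, while those of the outer classes do not. Uroplakin and cornified envelope counts were crossed in the same way for Mal, Snx31 and Rab27b. Among P cells with 0 uroplakin UMIs, Mal was 32.3, 166 and 795 CPM at 0, 1 to 3 and 4 or more cornified envelope UMIs.

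In D, Snx31 differed between uroplakin classes within a cornified envelope class, and between cornified envelope classes where uroplakin UMIs were present. The classes are wide, and that of 4 or more uroplakin UMIs joins bins with 32.3 and 97.8 CPM of Snx31. Either count may thus still vary within a class of the other, and their separate parts were not tested. Among cells with 0 cornified envelope UMIs, Snx31 was 2.09 CPM at 0, 6.29 CPM at 1 to 3 and 35.0 CPM at 4 or more uroplakin UMIs. Among the 131 cells with 0 uroplakin but 4 or more cornified envelope UMIs, Snx31 had 0 UMIs, which allows up to 7.15 CPM by the exact interval. At 1 to 3 uroplakin UMIs it was 6.29, 15.0 and 23.0 CPM with 0, 1 to 3 and 4 or more cornified envelope UMIs, and at 4 or more uroplakin UMIs it was 35.0, 40.7 and 87.3 CPM. Mal also differed along both counts, from 199 CPM with 0 of both to 502 CPM with cornified envelope UMIs alone, 771 CPM with uroplakin UMIs alone and 1267 CPM with 4 or more of both. In D, with 0 cornified envelope UMIs, Rab27b was 71.8, 70.6 and 63.3 CPM at 0, 1 to 3 and 4 or more uroplakin UMIs. The last value came from 38 UMIs (44.8 to 86.9 CPM). With 4 or more cornified envelope UMIs, Rab27b was 101, 91.9 and 148 CPM over the same classes. At 4 or more uroplakin UMIs it was 63.3, 117 and 148 CPM with 0, 1 to 3 and 4 or more cornified envelope UMIs.

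**Figure D4:**
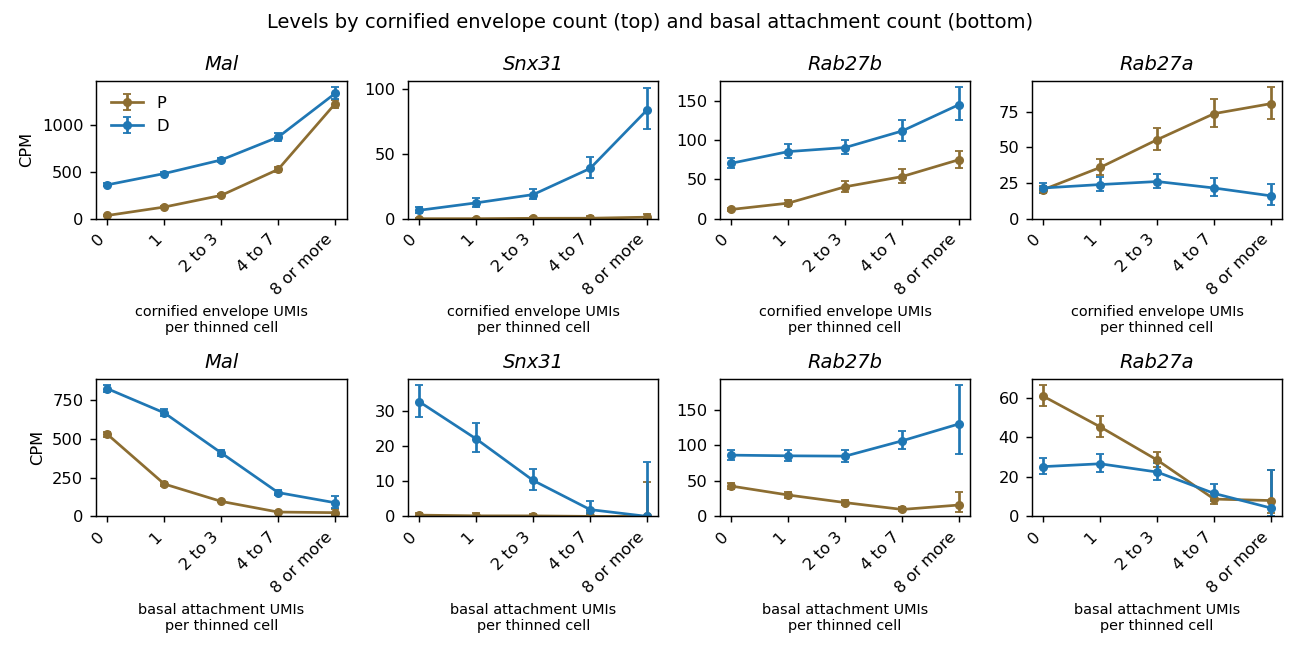
Levels of Mal, Snx31, Rab27b and Rab27a in CPM (linear axis from 0) by UMIs per thinned cell of the 8 cornified envelope genes (top) and 6 basal attachment genes (bottom) in P and D, with 95% Poisson intervals. Mal climbs along the cornified envelope count in both libraries, Rab27a goes from 20.3 to 80.6 CPM in P and from 21.5 to 16.0 CPM over all D cells, and Rab27b is lower in basal P cells but not in basal D cells.

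Basal cells, which hold to the matrix, were followed by UMIs of 6 attachment genes (Itga6, Itgb4, Col17a1, Trp63, Lamb3 and Dst). This count was not made up alike in both libraries, since Lamb3 was 22.5 CPM in P and 86.7 CPM in D, and Trp63 was 149 and 77.8 CPM. The D over P log2 ratios of Itga6, Itgb4, Col17a1 and Dst ran from -0.20 to 0.20. In P, 4 of 7 members were at least 2-fold lower with 4 or more than with 0 of these UMIs, beside 5.9% of all genes, and 0 were at least 2-fold higher, beside 6.93%. Mal was 27.6 and 531 CPM, Rab27a 8.66 and 60.7 CPM, Rab27b 10.3 and 42.7 CPM and Rab11a 141 and 292 CPM in these 1266 and 1887 cells. In D, Snx31, Mal, Sytl2 and Rab27a were the 4 of 9 at least 2-fold lower, beside 4.88% of all genes, and 0 were at least 2-fold higher, beside 5.2%. Snx31 was 1.77 and 32.8 CPM, Mal 148 and 827 CPM and Sytl2 6.02 and 25.4 CPM in the 739 and 1427 cells.

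Rab27b went the other way in D, at 108 CPM with 4 or more and 86.2 CPM with 0 attachment UMIs, a log2 ratio of 0.33 (0.12 to 0.53), against -2.05 (-2.54 to -1.59) in P. Among D cells with 0 uroplakin UMIs it was 54.8, 76.7 and 109 CPM at 0, 1 to 3 and 4 or more attachment UMIs, while in P it was 42.1, 24.0 and 10.2 CPM. Fibroblast markers went along with the attachment count in D, at 10.9 CPM with 0 and 174 CPM with 4 to 7 UMIs. Of the 1270 UMIs of this list in D, 1234 were of Dcn, while Col1a1 had 10 and Col1a2 had 0. Without cells holding a fibroblast or leukocyte marker UMI the log2 ratio of Rab27b in D was 0.15, and in P it was -1.77. No replicate allows a test of the difference between the libraries.

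Cycling cells, defined by at least 2 of 12 proliferation genes after thinning, numbered 304 in P and 12 in D. In P, Mal was 37.1 CPM in cycling and 263 CPM in other cells, a log2 ratio of -2.83 (-3.25 to -2.44), and Rab27a was 3.57 and 41.6 CPM, at -3.54 (-5.17 to -2.32). Rab27b was 15.0 and 28.6 CPM, at -0.94 (-1.64 to -0.31), and Rab11a was 142 and 225 CPM, at -0.67 (-0.88 to -0.46). Vamp7 was at -0.36 (-1.02 to 0.23) and Snap23 at -0.38 (-0.98 to 0.16), intervals that include equality and also leave room for a level lower by about 1 on the log2 scale.

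The other genes of the pathway, 65 in 6 lists, were described in the same way. Of 9 other Rab GTPases with at least 100 UMIs, 1 was at least 2-fold higher in D than in P, Rab11b, the paralogue of Rab11a, at 42.6 CPM in P and 89.8 CPM in D, beside 13.5% of all genes. Its log2 ratio of 1.08 (0.97 to 1.18) falls under 2-fold once the shift of 0.42 is taken off. Along the uroplakin count 0 of 9 differed 2-fold, beside 3.77% of all genes higher and 6.68% lower. Of 12 sorting nexin, retromer and endolysosome genes, 0 differed 2-fold between libraries, beside 13.5% of all genes higher in D and 4.73% in P. Of the 11 with enough UMIs, 0 differed along the uroplakin count, beside the same 3.77% and 6.68%. In lists this short, a count of 0 is close to such shares. Between libraries the log2 ratios of this list ran from -0.56 to 0.89, beside 6.66 for Snx31.

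Among Rab effectors and motors, 3 of 6 were at least 2-fold higher in uroplakin-rich D cells, beside 3.77% of all genes. Rab11fip5, a RAB11 effector, was 10.5 CPM at 0 and 44.7 CPM at 8 or more uroplakin UMIs, a log2 ratio of 2.09 (1.64 to 2.55). Myo5b, the myosin motor of RAB11 vesicles, was 11.4 and 33.3 CPM, at 1.54 (1.06 to 2.02). Exph5, a RAB27 effector, was 14.7 and 37.4 CPM, at 1.35 (0.91 to 1.79). Of 8 genes of this list compared between libraries, 1 was at least 2-fold higher in D, beside 13.5% of all genes. This was Rab11fip5, at a log2 ratio of 1.13 (0.87 to 1.39), under 2-fold once the shift of 0.42 is taken off.

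Of the other SNARE and Sec1/Munc18 genes, 2 of 15 were at least 2-fold higher in uroplakin-rich cells, beside 3.77% of all genes. Vamp5 was 115 and 359 CPM, at 1.64 (1.50 to 1.79), and Stx11 was 14.0 and 38.0 CPM, at 1.44 (0.99 to 1.88). Between libraries 1 of 17 was at least 2-fold higher in D, Vamp5, at 1.63 (1.54 to 1.71), beside 13.5% of all genes. The medians of this list were 0.15 along the uroplakin count, beside -0.11 over all genes, and 0.31 between libraries, beside 0.41.

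Members of the MAL family differed from each other. Pllp, which encodes plasmolipin, was 10.9 CPM in P and 41.7 CPM in D, a log2 ratio of 1.93 (1.74 to 2.13), and 19.2 and 90.5 CPM at 0 and 8 or more uroplakin UMIs in D, at 2.24 (1.91 to 2.56). Mal2, a transcytosis protein, was 124 and 155 CPM in P and D but 88.8 and 271 CPM along the uroplakin count, at 1.61 (1.44 to 1.78). Mall was lower in D, at 37.7 and 16.8 CPM, a log2 ratio of -1.17 (-1.35 to -0.99). Along the uroplakin count in D, Mall was higher by less than 2-fold, at a log2 ratio of 0.48.

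Exocyst subunits, which tether secretory vesicles, had a median log2 ratio of 0.81 between libraries, beside 0.41 over all genes, and 2 of 8 were at least 2-fold higher in D, beside 13.5% of all genes. Exoc6 was 1.35 and 5.61 CPM, at 2.06 (1.50 to 2.64), and Exoc4 was 28.7 and 66.7 CPM, at 1.22 (1.09 to 1.35), which falls under 2-fold once the shift of 0.42 is taken off. Along the uroplakin count 0 of 7 differed 2-fold, beside 3.77% of all genes higher and 6.68% lower. Their median was -0.20, beside -0.11 over all genes.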

How the data were processed

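Single-cell libraries were prepared with the 10x Genomics 3′ v3 chemistry. According to the processing notes, the authors used bcl2fastq 2.19.0 and Cell Ranger 3.0.2 with GRCm38/mm10. The deposited matrices hold raw UMI counts per gene and barcode, with no normalization.

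Kept cells had over 800 genes and at most 12% mitochondrial UMIs, the filter stated in the study. It left 6818 cells in P, slightly fewer than the study reports, and the same number as the study in D. UMIs were summed by library or bin and given as CPM (per 1000000 UMIs). CPM are relative, so a library with fewer ribosomal protein UMIs shows other genes higher. Intervals are exact and at the 95% level, of the Poisson kind for levels, Clopper-Pearson for shares and conditional binomial for ratios. They cover counting error only. Ratio intervals were checked on simulated Poisson counts, which follow the model that the intervals assume. Variation beyond counting error was not simulated. With 1 library per condition there is no replicate and no test. Cells were thinned to 2100 UMIs (random seed 1) to assign bins and to give shares of cells. Counts of members used genes with at least 100 UMIs over both groups and a 2-fold limit.

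The members and all lists were chosen with earlier results of these data known. Besides members and uroplakins, up to 5 genes per further list were named that were at least 2-fold apart in D over P or along the uroplakin count; for members with 500 UMIs in D, the 3 genes with the highest correlation over D cells (log-normalized, scale factor 10000) were named. The likeness given for Snx31 falls outside this rule. Gene positions come from GENCODE, promoters from RefSeq. Scrublet set its own threshold so that 0% of cells were called in either library and had not worked; doublets were therefore not removed, and alternatives left out the 6% of cells with the highest scores or the 5% with the most UMIs. Python 3.11.15, numpy 2.4.6, scipy 1.17.1, pandas 2.3.3 and scanpy 1.11.5 were used.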

Additional observations from a re-analysis of the deposited data

Results flagged for a closer look

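Rab27b differed in direction between the libraries along the basal attachment count, with a log2 ratio of cells with 4 or more over 0 attachment UMIs of -2.05 in P and 0.33 in D. The difference was not tested, since each condition has 1 library. Lamb3 and Trp63 also weigh differently in the attachment count of each library. Scaled by the median ratio the values were -2.22 and 0.18.

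The 1376 barcodes of P and 2079 of D that the filter left out also held UMIs of the members, given here per 1000000 non-mitochondrial UMIs. For 6 members the whole 95% interval in D lay above that in P. Snx31 was 20.3 in D (42 UMIs) and had 0 UMIs in P, Rab27b was 87.8 and 25.1, and Sytl2 was 31.9 and 3.51. Mal was 312 and 227, Vamp8 was 167 and 122, and Snap25 was 13.0 and 0.502. Vamp7 was 27.0 and 18.6, with overlapping intervals, and Rab11a went the other way, at 135 (119.8 to 152) and 175 (157 to 195). The kept cells of D had 20.5 for Snx31, 608 for Mal, 317 for Vamp8 and 6.05 for Snap25.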

How the results depend on the processing

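The count of members at least 2-fold higher in D over P was 6 and ranged from 4 to 6 over 9 alternatives; it was 4 when scaled by the median ratio and 4 in CPM without mitochondrial and ribosomal protein genes. The count in uroplakin-high over uroplakin-zero cells of D was 3; it was 1, Mal, among D cells between the quartiles of UMIs and with thinned counts of the members, where 6 members kept 100 UMIs in place of 9. The count among uroplakin-zero cells was 2; it was 1, Rab27b, without the 5% of cells with the most UMIs and with uroplakin bins from unthinned counts, where 7 members kept 100 UMIs in place of 8. No ratio of at least 2-fold changed sign under any alternative. Of the smaller ratios, Rab11a and Snap23 (D over P) changed sign under 2 of 9 alternatives, Mal and Snap23 (D over P among uroplakin-zero cells) under 3 of 10, and, uroplakin-high over zero, Vamp7 under 7 of 14, Snap23 and Rab27a under 1 of 14 and Snap25 under 1 of 12. Rab27a along the uroplakin count was 0.42 with bins from unthinned counts, and rested on 22 UMIs. With genes of at least 20 UMIs in place of 100, the share of all genes at least 2-fold higher in D over P was 15.5%. Leaving out cells with a fibroblast or leukocyte marker UMI and the settings for Rab27b along the attachment count were chosen after seeing the data; with unthinned bins the latter was -1.19 in P and 0.27 in D. Among cells between the quartiles of UMIs and with thinned counts, Snap25 had 0 UMIs in the top bin and gave no ratio. No paired analysis was possible because each group has 1 library. Depth limits Snx31 and Snap25 in P, with 5 UMIs each.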
